A study of Mus musculus with 4 samples.

Results

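The cadherin superfamily was examined in a table of regions from m6A-seq of mouse embryonic stem cells. m6A-seq captures RNA that carries a methyl group at the N6 position of adenosine and sequences it. Members were all rows whose gene symbol begins with Cdh and a number, Pcdh, Celsr, Dchs, Dsg or Dsc, together with Fat1 to Fat4. The rule gave 136 pairs of a region and a gene, made from 48 distinct regions under 41 genes, out of 6697 distinct regions under 3882 genes in the whole table. Gamma-protocadherin genes contributed 94 of the 136 pairs from only 6 distinct regions, so both counts are given below.

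The cells were of the E14K strain, either wild type or lacking Gsk-3 (double knockout, DKO), and both genotypes had been grown for 14 days without LIF, the cytokine that keeps such cells in self-renewal, before RNA was taken. The labels give 4 samples, an m6A immunoprecipitate (captured with an antibody from NEB) and an input from each genotype, with 1 library in each. They do not say how the DKO line was made or whether it is a single clone. Each region has 1 wild-type and 1 DKO count. There are no replicates, so no test was possible, every difference is between 2 libraries, and intervals (95%) cover counting error only.

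Cadherins are membrane proteins whose extracellular repeats bind calcium and, in most members, bind cadherins on neighbouring cells. Classical cadherins connect to actin through catenins, desmosomal cadherins connect to intermediate filaments, and protocadherins give neurons surface identities. The giant Fat and Dachsous cadherins bind each other, and with the flamingo (Celsr) receptors they take part in planar cell polarity. E-cadherin (Cdh1) is the main adhesion molecule of undifferentiated embryonic stem cells, and N-cadherin (Cdh2) takes its place as cells become mesenchymal or neural.

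Counts over all listed regions summed to 573971 in wild type and 27072 in the DKO; these are sums over the list and not library depths. Every listed region had the lower count in the DKO, so direction is a property of the list. Stem cell genes were partly represented: Pou5f1 had 55 reads against 6 and Esrrb 187 against 12, while Nanog, Sox2 and Zfp42 were not listed. Of the neural genes, Nes had 2184 reads against 11 over 9 regions and Sox11 1467 against 2, while Pax6 was not listed. The endoderm genes Gata6, Sox17 and Sparc had 59 against 8, 63 against 2 and 103 against 10. Of the fibroblast genes, Col1a1 had 248 against 0, while Col1a2, Col3a1 and Thy1 were not listed.

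The superfamily as a whole stood close to the table. Folds are wild type over DKO after the constant of 0.825 that the authors applied in their own ratio, and a region with no DKO reads is given a lower bound at a floor of 3 reads in that library. Over the 48 distinct regions the sums were 3964 reads against 191, a 17.1-fold difference (14.8 to 19.9), and over all regions the sums gave 17.5-fold. The median log2 of DKO over wild type, with a pseudocount of 0.5 on both counts, was -4.88 for the distinct regions, -5.01 for the 136 pairs and -4.93 for all regions. At least a 10-fold difference was reached by 29 of 48 distinct regions (60.4%) and by 89 of 136 pairs (65.4%), against 52.5% of all regions. No DKO read was found in 22 of 48 distinct regions (45.8%) and in 76 of 136 pairs (55.9%), against 50.5% of all regions. The shares over distinct regions lie near the background and are no result about the family, and those over pairs count the gamma regions many times. In bulk RNA, fewer cells of a type, less transcript per cell and less methylation per transcript cannot be told apart from these counts, since each region has only 1 count per genotype, with no second count to set it against.

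Near-average totals covered a contrast between Fat1 and the rest in summed counts and in the share of regions without DKO reads. Fat1 held 15 of the 48 regions, 49.2% of the family's wild-type reads and 79.1% of its DKO reads. Its sums were 1949 reads against 151, 10.6-fold (9.02 to 12.6). The 33 distinct regions of the other members had 2015 reads against 40, 41.5-fold (30.4 to 58.3), and these intervals do not overlap. They cover counting error only and not the spread among genes, so they do not show that the other members differ from Fat1 as a group. Among the other members, Pcdh7 gave 457 of the wild-type reads and 0 of the DKO reads. Pcdh1 and Cdh8 gave 12 and 11 of the 40 DKO reads. Without DKO reads were 1 of 15 Fat1 regions (6.67%, 0.169 to 31.9) and 21 of 33 regions of other members (63.6%, 45.1 to 79.6). The share over all regions was 50.5%, which lies within the interval of the other members. Fat1 regions had a median of 98 wild-type reads against 49 in the others, and the share without DKO reads depends on that count. At least a 10-fold difference was reached by 8 of 15 Fat1 regions (53.3%, 26.6 to 78.7) and 21 of 33 others (63.6%, 45.1 to 79.6). These intervals overlap, and both include the 52.5% of all regions.

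**Figure D1:**
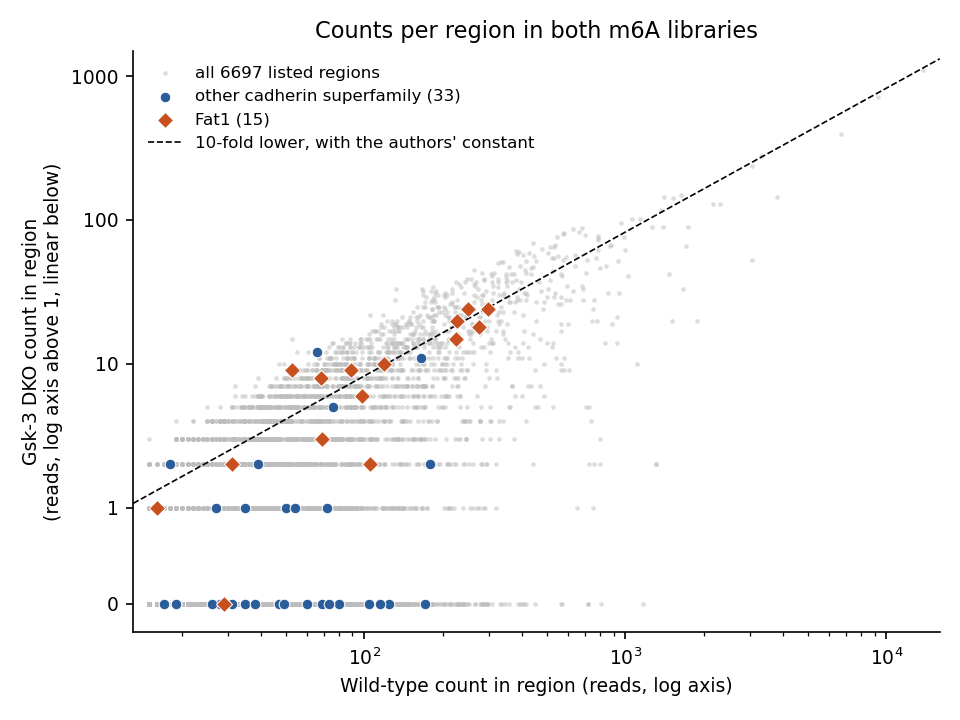
Wild-type count (x axis, reads) against DKO count (y axis, reads) for each distinct region, with Fat1 as diamonds, the other cadherin superfamily regions as blue points and all 6697 regions in grey. Fat1 regions follow the dashed 10-fold line up to 24 DKO reads, whereas 21 of the 33 other member regions (63.6%) sit at 0, against 50.5% of all regions.

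Fat1 encodes a giant atypical cadherin that acts in actin organisation, cell polarity and Hippo signalling. Only 2 genes of the table had more regions, and 1 other gene had as many. Its 15 regions lay on chromosome 8 across 101 kb. Their lengths summed to 3940 bases, in which 20 bases shared by 2 adjoining regions are counted for both. Coordinates match gene positions in the build GRCm38 and are printed as deposited.

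The first Fat1 region (chr8:44950156-44950315), annotated as 5'UTR and coding exon, was the single one without DKO reads, with 29 wild-type reads (19.4 to 41.6) against 0. It is the one region of Fat1 that reaches into sequence available from RefSeq, a 300-base window around the annotated start (chr8:44949958-44950257, GRCm38.p6, plus strand). The window is shown because the region runs upstream of that start; capitals mark the 102 bases that the region covers, 52 before the start and 50 after it.

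Fat1: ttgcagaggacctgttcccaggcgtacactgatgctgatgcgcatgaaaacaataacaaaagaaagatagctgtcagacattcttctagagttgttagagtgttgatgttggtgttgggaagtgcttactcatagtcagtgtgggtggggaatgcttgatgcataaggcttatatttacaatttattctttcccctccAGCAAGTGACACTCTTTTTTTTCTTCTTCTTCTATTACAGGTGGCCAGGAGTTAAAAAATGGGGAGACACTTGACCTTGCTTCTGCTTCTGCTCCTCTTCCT

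The capitals hold a run rich in T and C that ends in ACAG, with 25 T or C among the 30 bases up to and including those letters, 12 bases before the annotated start. The letters ATG begin 6 bases after the start. As background, a run of T and C ending in AG is the usual letter pattern at the 3' end of an intron. GGAC, the core of the most common m6A sequence context, was searched for on both strands. It was absent from the capitals and occurred once in the whole window, at position 8 from the 5' end on the plus strand. Other m6A sequence contexts were not searched, and the rest of the 160-base region lies outside the window. The absence of GGAC therefore does not show that the region lacks an m6A context. At least 1 GGAC on either strand was present in 87.7% of the 32851 RefSeq windows of this length, and in 54.2% within the same last 102 bases.

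The other 14 regions of Fat1 all had DKO reads. In the next stretch of coding sequence (chr8:44950360-44950798) wild type had 275 reads (243 to 309) and the DKO 18 (10.7 to 28.4), 12.6-fold (7.82 to 21.6). The most reads of any member region lay in the coding region at chr8:44951753-44952053, with 297 against 24, 10.2-fold (6.73 to 16.2). A coding region 59795 bases from the start (chr8:45009901-45010106) had 226 against 20, 9.32-fold (5.89 to 15.6). These deep regions, from the 5' part to the middle of the gene, had intervals that overlap one another.

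At the 3' end, the region from coding sequence into the 3'UTR (chr8:45051251-45051443) was the densest of the family in wild type, at 1.30 reads per base, and had 250 reads against 24, 8.59-fold (5.64 to 13.7). The 617-base coding region at chr8:45025474-45026090 had 224 against 15, 12.3-fold (7.31 to 22.4). Read density thus varied from 0.0865 to 1.30 wild-type reads per base across the gene, while the folds of these deep regions had overlapping intervals.

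The smallest Fat1 fold was 4.86 (2.38 to 11.2), with 53 reads against 9 at chr8:45023976-45024235. This region and the 2 that follow it along the gene are also listed as upstream of the neighbouring gene Gm2366. The largest was 43.3 (11.7 to 362), with 105 reads against 2 at chr8:45040701-45040899. That region shares 20 bases with its neighbour (chr8:45040520-45040720), which had 98 reads against 6, 13.5-fold (5.97 to 37.6). The intervals of these adjoining regions overlap widely. The summed-count fold of Fat1 lay within the interval of 14 of its 15 regions, and the 43.3-fold region was the exception.

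Regions within exons and regions crossing an exon and intron border gave similar values in Fat1. The 10 regions within exons summed to 1543 reads against 121, 10.5-fold (8.74 to 12.8), and the 5 crossing a border to 406 against 30, 11.2-fold (7.70 to 16.8). The fold of all exonic regions of the table was 14.8 on summed counts. Among the 15 genes with at least 10 regions, summed folds ran from 6.36 to 142 with a median of 14.8, and 5 genes had a smaller fold than Fat1.

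**Figure D2:**
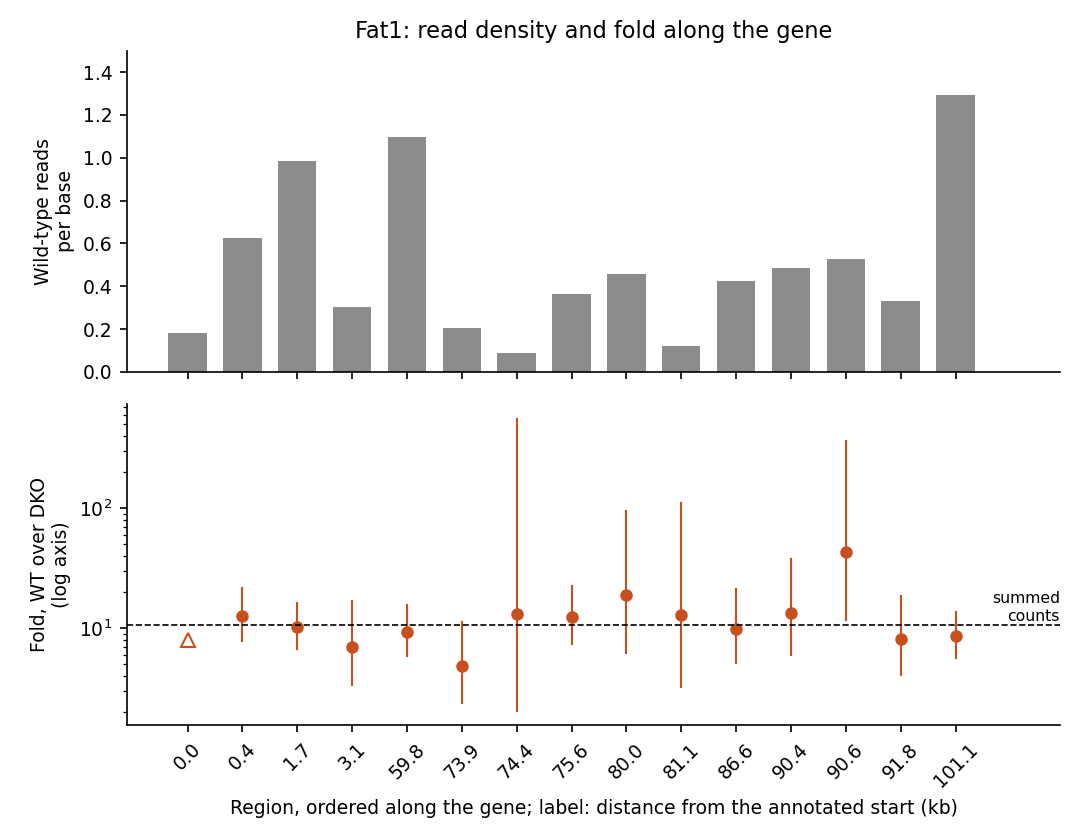
Fat1 regions in order along the gene, labelled by distance from the annotated start in kb: wild-type reads per base (upper bars) and fold of wild type over DKO on a log axis (lower points, lines are 95% counting intervals, open triangle is a lower bound with no DKO reads, dashed line is the fold of the summed counts). Density differs from 0.0865 to 1.30 reads per base, and 14 of 15 intervals include the summed-count fold of 10.6.

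Other members of the Fat and Dachsous group had few regions. Dchs1, the large cadherin that serves as ligand of Fat4, had 69 reads (53.7 to 87.3) against 0 in a coding exon (chr7:105753524-105753777), at least 19.0-fold lower in the DKO. The same region is also listed as upstream of the neighbouring gene Tpp1. Fat3, which acts in neuronal morphology, had 76 against 5 in an intron (chr9:16319584-16319831), 12.5-fold (5.14 to 39.7), and 17 against 0 in a coding exon. Fat2, Fat4 and Dchs2 were not listed.

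Celsr1, the mammalian flamingo receptor of planar polarity, had 72 wild-type reads and 1 DKO read within coding sequence (chr15:86032687-86032991), 59.4-fold with an interval of 10.3 to 2378. Celsr2 and Celsr3 were not listed. With 1 DKO read the size of this fold is poorly fixed, and its interval overlaps that of Fat1.

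Pcdh7, a non-clustered protocadherin of the delta-1 group, was the member with the most regions after Fat1 outside the gamma cluster. Its 5 regions lay within 2452 bases at the start of the gene (chr5:57718080-57720531), and none had a DKO read. The 2 regions in the 5'UTR had 73 and 60 wild-type reads. The region from 5'UTR into coding sequence had 49, and the 2 coding regions 171 and 104. All 5 are also listed as upstream of the neighbouring gene 4932441J04Rik.

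Summed over its regions, Pcdh7 had 457 reads against 0, at least 126-fold lower in the DKO with the floor of 3 counts taken over the whole gene. Single regions gave bounds from 13.5-fold to 47.0-fold. Of 116 genes with at least 5 regions (upstream regions left out), 3 had no DKO read in any of them (2.59%), and among those 3 no gene had more wild-type reads than Pcdh7. In Fat1, by contrast, all 12 regions with at least 50 wild-type reads had DKO reads. The interval of the summed fold of Pcdh7 starts at 102 and does not overlap that of Fat1.

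The remaining non-clustered protocadherins covered a wide range. Pcdh1, an epithelial protocadherin, had the smallest fold of the family, 66 reads against 12 in a coding exon (chr18:38202856-38203055), 4.54-fold (2.43 to 9.22). Pcdh18 had 54 against 1 in a coding exon (44.5-fold, 7.66 to 1791). Pcdh8, known as paraxial protocadherin for its role in early mesoderm, had 27 against 1 in a coding exon (22.3-fold, 3.67 to 912). The Pcdh8 region also lies within the long non-coding RNA gene Gm9748, and which transcript gave its reads was not tested.

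Pcdh19, a gene of X-linked epilepsy in people, had 17 against 0 in its 5'UTR, a bound of 4.67-fold. Pcdh15, a component of the tip links of hair cells, had 2 intronic regions. The deeper one (chr10:74492325-74492491) had 179 reads (154 to 207) against 2, 73.8-fold (20.1 to 614), and the other had 50 against 1 (41.2-fold, 7.07 to 1661). The first was among the densest member regions, at 1.07 wild-type reads per base, against a median of 0.187 over all intron-only regions.

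Pcdh11x had 35 against 1 in an intron, Pcdh10 28 against 0 in an intron and Pcdh9 35 against 0 in an intron. The Pcdh9 region overlaps the small nuclear RNA gene Gm23509, and which transcript gave its reads was not tested. Over the 14 non-clustered protocadherin regions 8 had no DKO reads (57.1%), close to the 50.5% of all regions, and the summed counts of 948 against 18 gave 43.4-fold (27.3 to 73.6). Pcdh7 alone supplied 457 of the 948 wild-type reads, 0 of the 18 DKO reads and 5 of the 8 regions without DKO reads. The summed fold of this group therefore depends strongly on 1 gene. Pcdh12, Pcdh17 and Pcdh20 were not listed.

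Among the cadherins grouped here as classical (Cdh1 to Cdh4 and Cdh15), only P-cadherin (Cdh3) was listed. It had 19 reads (11.4 to 29.7) against 0 in its 3'UTR (chr8:106555479-106555629), at least 5.22-fold lower. Cdh1, Cdh2, Cdh4 and Cdh15 were not listed. That says nothing about their level or methylation, since the sources used here do not give the criteria for a region to be listed.

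Other cadherins, here all remaining Cdh genes, were listed through single regions, save Cdh18. Cdh5 (VE-cadherin), the adhesion molecule of endothelial junctions, had 115 reads (94.9 to 138) against 0 across an exon and intron border (chr8:104142468-104142887), at least 31.6-fold lower. Cdh18 had 124 and 38 against 0, both in introns (bounds of 34.1-fold and 10.4-fold). Cdh8, a type II cadherin of the nervous system, was the exception in this group, with 164 reads (140 to 191) against 11 (5.49 to 19.7) in an intron (chr8:99404232-99404422), 12.3-fold (6.69 to 25.1).

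Cdh12, Cdh22 and Cdh6 had 31, 28 and 26 wild-type reads against 0, with bounds from 7.15-fold to 8.52-fold. The region of Cdh12 carried the label of a non-coding transcript, that of Cdh22 spanned coding sequence and 3'UTR, and that of Cdh6 lay in a coding exon. Over the 7 regions of these genes 6 had no DKO reads (85.7%, 42.1 to 99.6), against 50.5% of all regions, a value within the interval. Their 11 DKO reads were all in Cdh8. The 9 desmosomal cadherin genes of RefSeq had no listed member, although Dsp, which anchors desmosomal cadherins, had 10 regions.

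**Figure D3:**
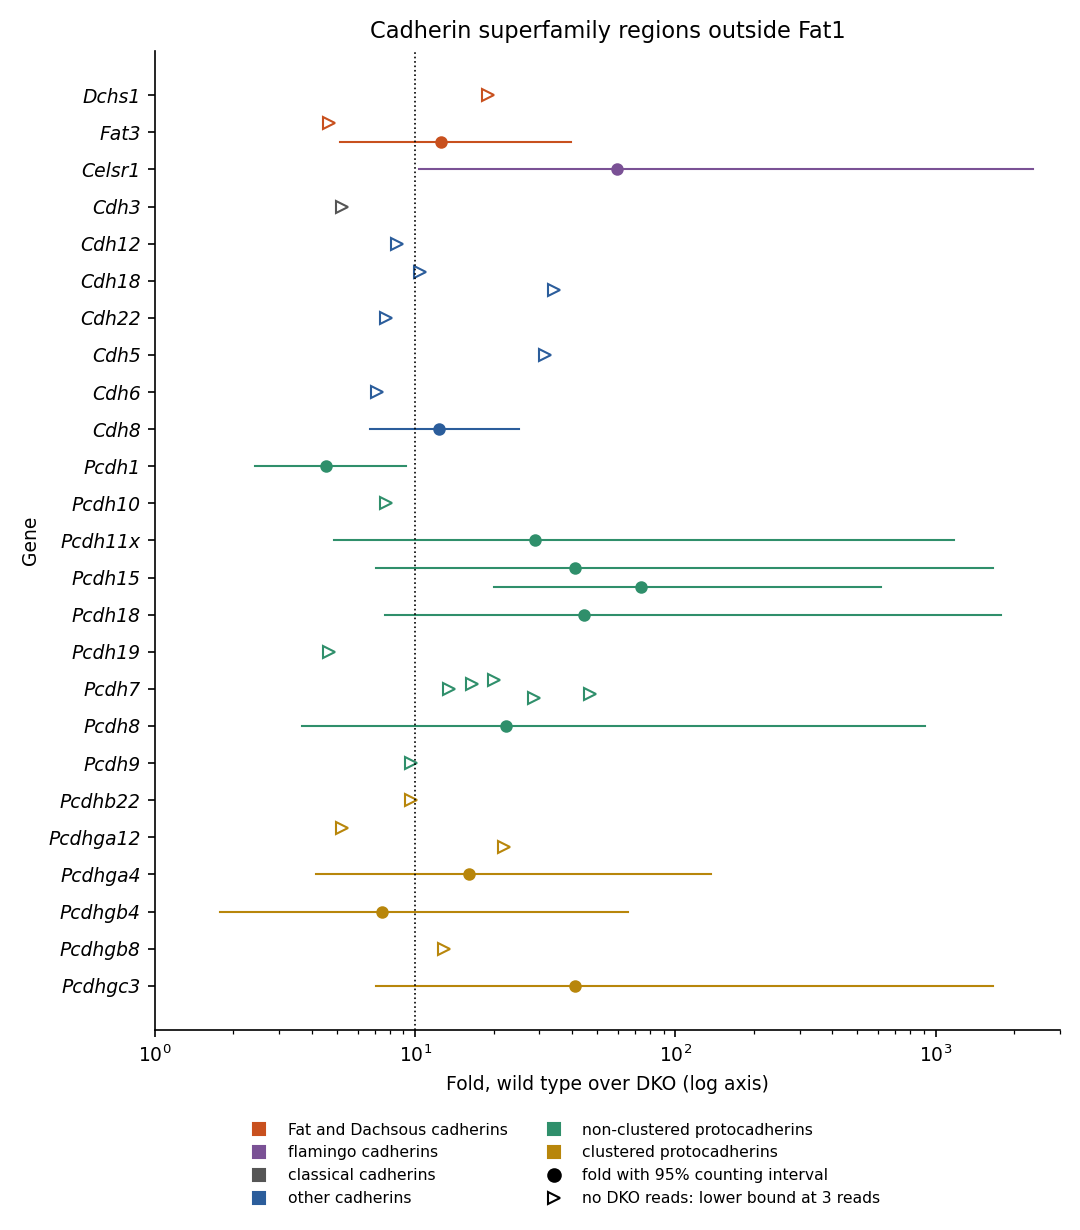
Fold of wild type over DKO (log axis) for each distinct region outside Fat1, by gene and coloured by subfamily; points have 95% counting intervals, open triangles are lower bounds for regions with no DKO reads, the dotted line marks 10-fold, and gamma regions stand under the gene whose exon they overlap. Pcdh1 has the smallest fold with DKO reads (4.54), and all 5 regions of Pcdh7 are bounds above 10-fold.

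Clustered protocadherins are transcribed from arrays of variable first exons, each with its own promoter, which in the alpha and gamma clusters are spliced to shared constant exons. A variable exon of a later gene therefore lies within the first intron of the genes before it. Of 22 gamma genes in RefSeq 20 were listed, but in the table's annotation each of the 6 regions overlapped a coding exon of exactly 1 listed gene. Of the 94 pairs, 6 were annotated to a coding exon, 85 to an intron and 3 as upstream. Counted by exon, 5 gamma genes had a region, and the other 15 were listed through introns or as neighbours.

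Pcdhga12 had 2 regions in its coding exon, with 80 and 19 wild-type reads against 0 (bounds of 22.0-fold and 5.22-fold). The exon of Pcdhgb8 had 47 against 0, at least 12.9-fold lower; RefSeq classes this gene as a transcribed pseudogene. Pcdhgc3, one of the C-type isoforms, had 50 against 1 (41.2-fold, 7.07 to 1661). Pcdhga4 had 39 against 2 and Pcdhgb4 had 18 against 2, 16.1-fold and 7.42-fold. The regions lay 385 to 2477 bases from the start of the gene whose exon they overlapped. No region carried an exon label under more than 1 gene.

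Summed once each, the 6 gamma regions had 253 reads against 5, 41.7-fold (17.6 to 130). Pcdhb22 was the single listed gene of 22 in the beta cluster, with 35 against 0 in its coding exon. No gene of the 14 in the alpha cluster was listed. Members of these clusters are close copies of one another, and how reads matching several of them were counted is not given in the sources used here, so the assignment of reads to 1 gene is uncertain. All 6 gamma regions and that of Pcdhb22 also lie within the RefSeq protein-coding genes Gm37013, Gm38666 and Gm38667.

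**Figure D4:**
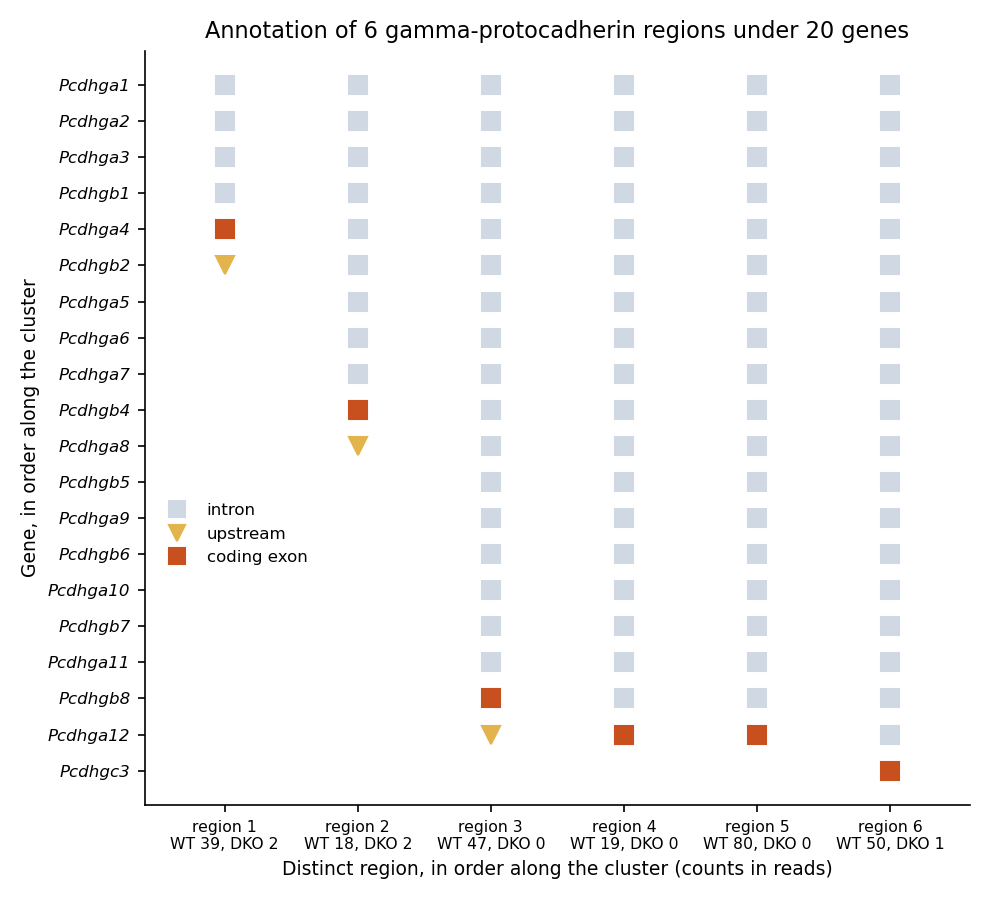
Annotation given to each of the 6 distinct gamma-protocadherin regions (x axis, with counts in reads) under each of 20 genes (y axis, in order along the cluster). Each region is a coding exon of 1 gene only, and 85 of the 94 marks are introns.

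All 15 Fat1 regions were exonic, and the contrast with other members was also present within that class. Exonic regions of members other than Fat1 had no DKO reads in 16 of 23 cases (69.6%, 47.1 to 86.8), against 36.1% of all exonic regions. Their summed counts were 1255 against 20, 51.8-fold (33.4 to 85.0). Pcdh7 alone gave 5 of the 16, 457 of the 1255 wild-type reads and 0 of the 20 DKO reads. The share and the sums therefore depend strongly on 1 gene, and regions of 1 gene are not independent. The difference shows in the absence of DKO reads and in the sums. By the 10-fold measure, 14 of these 23 regions passed (60.9%, 38.5 to 80.3), against 56.6% of all exonic regions. In the 16 regions without DKO reads, the floor makes that measure depend on the wild-type count alone. The 10-fold measure therefore cannot decide whether these regions differ in fold from all exonic regions.

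Of 9 intron-only member regions, 4 had no DKO reads (44.4%, 13.7 to 78.8), below the 70.9% of all intron-only regions, though the interval includes that value. By the 10-fold measure, 7 of the 9 passed (77.8%, 40.0 to 97.2), and this interval includes the 46.9% of all intron-only regions. The median wild-type count was 50 in the member regions and 35 in all intron-only regions. Where DKO reads are absent, the 10-fold measure depends on that count. Their summed counts were 729 against 20, 30.1-fold (19.3 to 49.5), against 23.5-fold for all intron-only regions.

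The share without DKO reads depends on how many wild-type reads a region has, and was therefore also set out by wild-type count. At 15 to 49 reads, 13 of 17 regions of members other than Fat1 had none (76.5%, 50.1 to 93.2), against 66.2% of all regions. At 50 to 99 reads it was 4 of 10, against 39.3%. At 100 reads or more it was 4 of 6 (66.7%, 22.3 to 95.7), against 18.8% of all regions. The 4 regions were the deepest ones of Pcdh7 (2), Cdh5 and Cdh18, and the 2 with DKO reads were those of Cdh8 and Pcdh15. In Fat1, 0 of 12 regions with 50 or more wild-type reads lacked DKO reads. Of all exonic regions, the class of every Fat1 region, 27.7% lacked them at 50 to 99 reads and 11.9% at 100 or more. The Fat1 intervals in these ranges (0 to 52.2% and 0 to 41.0%) include those shares.

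**Figure D5:**
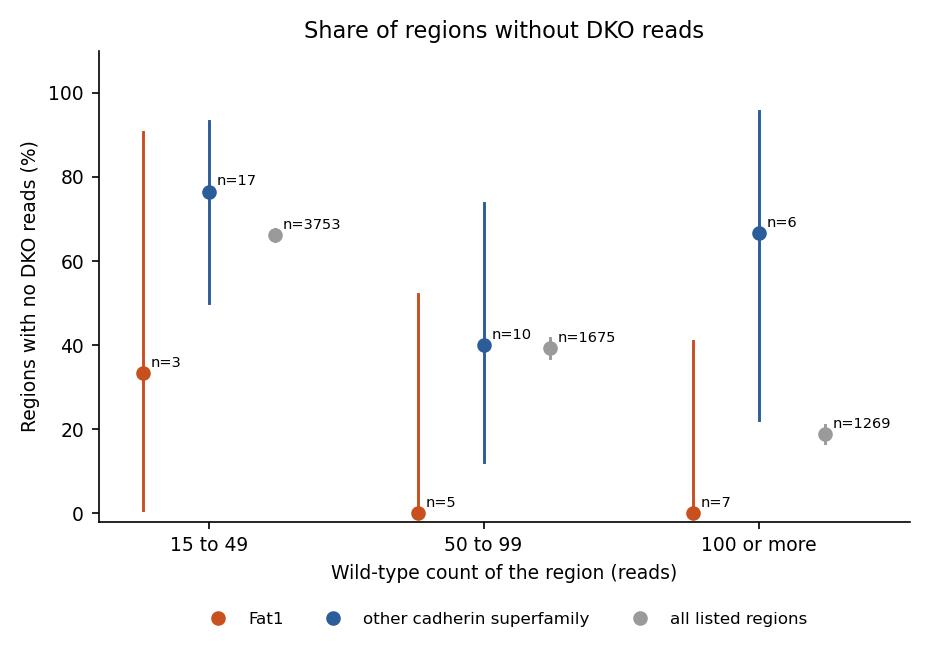
Percent of regions with no DKO reads (y axis) by wild-type count (x axis, reads) for Fat1, the other cadherin superfamily regions and all listed regions, with exact 95% binomial intervals that treat regions as independent. At 100 reads or more, 4 of 6 other member regions lack DKO reads, against 0 of 7 in Fat1 and 18.8% of all regions. The share of all exonic regions in that range, not drawn, is 11.9%.

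Genes that work with cadherins were taken from lists. Among 17 genes of catenins and the junction plaque, 7 were listed with 25 regions. Of these, 18 passed 10-fold (72.0%, 50.6 to 87.9, against 52.5% of all regions) and 8 had no DKO reads (32.0%, 14.9 to 53.5, against 50.5%). Both intervals include the share of all regions, and Dsp alone gave 9 of the 18. Dsp, desmoplakin, had 10 regions summing to 1167 reads against 44, 21.9-fold (16.2 to 30.3). Vcl, the actin linker vinculin, had 223 against 6 over 4 regions, 30.7-fold (13.9 to 84.4).

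Catenins differed among themselves. Ctnnd1, p120-catenin, which stabilises cadherins at the membrane, had 111 against 9 over 3 regions, 10.2-fold (5.17 to 22.8). Its neural relative Ctnnd2 had 208 against 3 in 2 intronic regions, 57.2-fold (19.3 to 280), and the alpha-catenin gene Ctnna3 had 245 against 0 in 3 intronic regions, at least 67.4-fold lower. Mllt4, afadin, had 161 against 21 (6.32-fold) and Pkp4 56 against 8 (5.77-fold). Beta-catenin (Ctnnb1), Jup and Ctnna1 were not listed.

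Of 24 genes of planar polarity and the Fat and Hippo branch, 10 were listed with 16 regions. Of these, 11 passed 10-fold (68.8%, 41.3 to 89.0, against 52.5% of all regions) and 5 had no DKO reads (31.2%, 11.0 to 58.7, against 50.5%). Both intervals include the share of all regions, and Lats2 alone gave 6 of the 11. Lats2, a kinase of the Hippo pathway, had 612 reads against 15 over 7 regions, 33.7-fold (20.2 to 60.5). Yap1, the transcriptional coactivator that Lats kinases inhibit, had 121 against 14 in a coding exon, 7.13-fold (4.09 to 13.4), and Tead1, its DNA-binding partner, had 182 against 14 in the 3'UTR, 10.7-fold. The intervals of Yap1 and Lats2 do not overlap, and that of Fat1 overlaps that of Yap1 and includes the fold of Tead1. Vangl1 and Prickle1, core polarity genes, had 29 against 0 and 82 against 4. Scrib was among the 10 genes only through a region annotated as upstream of it, with 32 reads against 0. That region is counted in the 16 and in the 5 without DKO reads. From the cleavage enzymes 1 of 5 genes was listed, Psen2 with 24 against 0, and none of 9 further genes with cadherin repeats was.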

How the data were processed

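The deposited table holds, for each region, a count of reads from wild-type cells and 1 from DKO cells. The headers name only the genotype, and the counts were assigned to the immunoprecipitates, the samples titled m6A-seq; input counts remain possible. The authors' ratio column is the wild-type over the DKO count times a constant of 0.825, blank where the DKO count is 0, as checked on the deposited values. The deposited read density, a signal, is the wild-type count over the region's length. Bowtie2, DESeq and mm9 are named in the submitters' processing notes without role; 99.8% of rows with a matched gene identifier, and all 136 member rows, were no more than 5000 bases from the GRCm38 position of that gene.

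Members and lists were chosen with earlier results of these data known. All listed member genes are named, save the 15 gamma genes listed only through introns or as upstream. Folds, exact Poisson intervals (counts) and exact Clopper-Pearson intervals (ratios, shares) were computed in Python 3.11.15 with scipy 1.17.1 and checked on simulated data. A count of 0 has an upper limit of 3.69 by interval, and bounds use 3. Reads without molecular identifiers are not independent molecules. Exonic means overlapping coding sequence or a UTR under any gene. The promoter table held 14 of 41 member genes. Alternatives covered the pseudocount, constant, floor, region filter, repeated and overlapping regions, and leaving out Fat1.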

Additional observations from a re-analysis of the deposited data

How the results depend on the processing

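With 1 library per group no replicate could be left out. No paired analysis was possible because each group has 1 library. The alternative with distinct regions outside Fat1 was chosen after seeing the data. The median log2 value over the 136 pairs (-5.01) was -5.99 at a pseudocount of 0.25, -3.84 at 2, -5.29 without the authors' constant, -6.29 in regions at or above the table's median mean count, -7.05 with 1 region per gene, -5.66 with counts summed per gene and -5.55 in distinct regions outside Fat1. The share at least 10-fold lower (65.4%) was 86.8% with zeros at a floor of 1 count, 91.8% above the median mean count, and 78.0% both with 1 region per gene and with summed counts. The share without DKO reads (55.9%) was 44.7% in exonic pairs, 45.8% with each region once, 75.6% with 1 region per gene and 29.3% with summed counts. The fold of the summed pairs (27.2) was 33.0 without the constant, 15.5 in exonic pairs, 17.1 with each region once, 55.3 without Fat1 and 41.5 in distinct regions outside Fat1. At a pseudocount of 2 the medians of Fat and Dachsous cadherins (-3.45), clustered (-5.01) and non-clustered protocadherins (-5.71) were -3.15, -3.84 and -3.94. Repetition of gamma regions under many genes sets the gap between pairs and distinct regions by construction. It also enters the values with 1 region per gene. There the same gamma region, with 80 wild-type reads and 0 DKO reads, stood for 19 of the 41 genes, and -7.05 is its own value. Its 19 copies are counted in the 75.6% and 78.0% with 1 region per gene. Sums per gene repeat shared gamma regions as well. Pseudocount, constant and floor enter the values directly. Otherwise the cause was not tested. All 164 alternatives of single genes stayed within counting error, and none of the alternatives changed a direction. Neither outcome is a strong check. Where the deepest region of a gene had no DKO read, its log2 interval has no lower limit, so a downward shift could not leave it. Genes with 1 region keep their value when counts are summed. Direction was fixed by the list, in which every region had the lower count in the DKO.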
